A study of Arabidopsis thaliana with 17 samples.

Results

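OE-6 is an Arabidopsis thaliana line in which the atdgcr14l-1 mutant carries the transgene 35S:AtDGCR14L, and it was compared here with the wild type Col-0 to see which transcripts still differ once the gene has been put back. Libraries were grouped by their titles and compared within each time, with 3 OE-6 and 2 Col-0 libraries at 0 h of 200 mM NaCl and 3 OE-6 and 3 Col-0 libraries at 24 h. These are 11 of the 17 libraries of the series, and the other 6 are 3 atdgcr14l-1 libraries at each time. A second comparison let both times share 1 line effect, with time as a further factor. A line difference that changes between the times enters the spread of that comparison. All plants were labelled as seedlings, were 14 days old and grew in hydroponic culture, and the series title places the study in salt tolerance and pre-mRNA splicing. The 35S promoter of cauliflower mosaic virus is active in most plant tissues and does not follow the native pattern of a gene. OE-6 is 1 transgenic line, so the effects of the transgene and of its insertion site cannot be told apart. All libraries of both times are labelled with the NaCl treatment and there are no unsalted libraries at 24 h, so time and salt cannot be told apart either.

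DGCR14, also named ESS2, has been found in human cells in complexes of the spliceosome, the machinery that removes introns from pre-mRNA. AtDGCR14L is its Arabidopsis relative. Complementation of a mutant with a transgene is the usual genetic check that a phenotype belongs to the mutated gene. The results below turn on a small family of flowering regulators. FLC and its relatives MAF1 to MAF5 encode MADS-box transcription factors that delay flowering, largely by keeping the florigen gene FT and the flowering integrator SOC1 down, and MAF2 to MAF5 stand side by side on chromosome 5.

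Levels are given as CPM, the counts of a gene scaled to a common library total after TMM scaling, which corrects the totals for differences in RNA composition. Differences are log2 ratios of OE-6 over Col-0, fitted with edgeR's quasi-likelihood test, given with their standard error (SE). A gene was called when its p-value, adjusted by Benjamini and Hochberg over all genes tested, was under 0.05. The libraries held between 53058673 and 56464259 counts, so depth differed little. The 3 OE-6 libraries at 24 h varied more among themselves than the Col-0 libraries: the median SD of the log2 level over the 15223 genes that averaged 5 CPM or more was 0.178 in OE-6 and 0.11 in Col-0 at 24 h, and 0.098 in OE-6 and 0.076 in Col-0 at 0 h. The mean rank correlation of an OE-6 library with the others of its group was between 0.9736 and 0.9784 at 24 h, against 0.9926 to 0.9937 for Col-0, and replicate 2 of OE-6 at 24 h lay farthest from the rest. The tissue label was compared with marker genes. The 46 nuclear photosynthesis genes together held 164000 to 181000 CPM in OE-6 and 159000 to 176000 CPM in Col-0 at 0 h. The 16 root markers together held 65.3 to 68.5 CPM in OE-6 and 64.8 to 68.0 CPM in Col-0 at 0 h. Of these root markers, 5 were at 0 in OE-6 and 5 in Col-0 at 0 h. The root hair genes RHD6 and RSL4 were at 0 in every OE-6 and Col-0 library. The labels do not say whether replicates came from separate plants or cultures, so the p-values measure a spread between libraries. For the tests within a time, that spread was estimated from all 17 libraries, those of atdgcr14l-1 and of the other time included. The median SD in atdgcr14l-1 was 0.074 at 0 h and 0.174 at 24 h.

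AtDGCR14L (AT3G07790, chromosome 3, 2487313 to 2489386 on the plus strand in TAIR10.1, 1 exon) was present in OE-6 at close to the Col-0 level. At 0 h it had 43.2, 48.6 and 50.5 CPM in OE-6 and 59.9 and 55.7 CPM in Col-0. After 24 h of salt the gene had 67.6, 88.3 and 68.4 CPM in OE-6 and 74.2, 78.8 and 72.2 CPM in Col-0. The OE-6 libraries were all below both Col-0 libraries at 0 h and overlapped with them at 24 h. The mean in OE-6 was 82.1% of that in Col-0 at 0 h and 99.6% at 24 h. The log2 difference was -0.28 ± 0.12 at 0 h (SE, 95% interval -0.55 to -0.02, edgeR unadjusted p = 0.0374, adjusted p = 1), -0.01 ± 0.11 at 24 h (-0.24 to 0.23, adjusted p = 0.993) and -0.13 ± 0.09 as 1 line effect (-0.31 to 0.06, adjusted p = 0.996), and none was called. For scale, the atdgcr14l-1 libraries held 8.27, 8.52 and 6.76 CPM at 0 h, so OE-6 was higher than the mutant by 2.60 on the log2 scale before salt (edgeR adjusted p = 3.54e-08) and by 2.62 after 24 h (adjusted p = 2.69e-08). Transcript from the transgene and from the mutant allele cannot be separated in a count per gene.

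**Figure D1:**
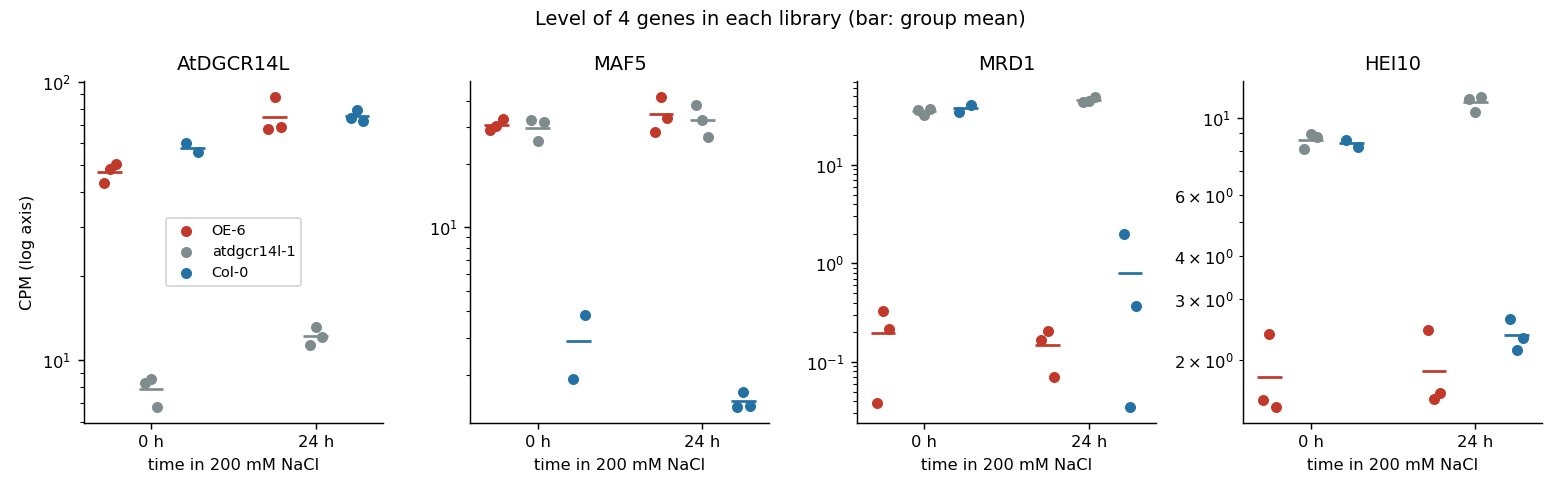
Level in CPM (log axis) of AtDGCR14L, MAF5, MRD1 and HEI10 in each library at 0 h and 24 h, with 1 point per library and a bar for the group mean; OE-6 is red, atdgcr14l-1 grey and Col-0 blue, and each panel has its own axis. AtDGCR14L in OE-6 lies near Col-0, MAF5 in OE-6 lies near atdgcr14l-1 at both times, and MRD1 and HEI10 in OE-6 are far below Col-0 at 0 h, while at 24 h the Col-0 libraries are themselves low.

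Across all genes, few were called between OE-6 and Col-0. At 0 h 3 of 21282 genes tested were called (0.0141%): the flowering repressor MAF5 was higher in OE-6 (0.0047% of genes), and the neighbours MRD1 and HEI10 were lower (0.0094%). At 24 h 1 gene was called (0.0047%), again MAF5, and as 1 line effect over both times 1 of 21098 genes was called (0.00474%), also MAF5. No gene was called lower in OE-6 at 24 h or in the shared line effect; 1028 and 284 genes had an unadjusted p under 0.05 in that direction, and DESeq2 called 30 and 5. In the direct comparison of the 2 times, 0 genes (0%) had a line difference at 24 h that departed from that at 0 h by edgeR; 914 had an unadjusted p under 0.05 and DESeq2 called 8. Among the 15223 genes that averaged 5 CPM or more, the line differences at 0 h and 24 h had the same sign for 44.3%. Across these genes the 2 differences correlated by 0.188 (Pearson) and -0.162 (rank correlation), a limit of the shared line effect. Unadjusted p-values under 0.05 were reached by 2.05% of genes at 0 h, by 7.96% at 24 h and by 3.9% in the shared line effect. At 24 h the genes below that value were lower in OE-6 more often than higher, 1028 against 665. The calls also depended on which libraries gave the spread. With only the libraries of 0 h fitted, 13 genes were called higher and 5 lower at 0 h. With only those of 24 h fitted, 1 was called higher and 0 lower at 24 h. Single libraries carried weight in these counts: without replicate 3 of OE-6 at 24 h, 9 genes were called higher and 76 lower at 24 h, and without replicate 1 of OE-6 at 24 h, 4 were called lower. At 0 h, 3 genes were called higher without replicate 1 of Col-0 and 2 without replicate 3 of OE-6; in the shared line effect, 3 were called higher without replicate 3 of OE-6 at 24 h and 2 without replicate 3 of OE-6 at 0 h, and 1 was called lower without replicate 2 of Col-0 at 0 h.

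The intervals around these differences say how much could have been missed. The 95% interval of the OE-6 over Col-0 difference lay wholly within 2-fold either way for 80% of genes at 0 h, for 80.8% at 24 h and for 86.8% in the shared line effect. These shares are of the genes with an interval, 21160 of 21282 at 0 h, 21268 at 24 h and 21098 in the shared line effect. Among genes with a mean of 20 to 100 CPM this held for 97.6% at 0 h and 97.4% at 24 h, and among genes under 1 CPM for 7.93% at 0 h and 12.8% at 24 h. The interval lay within 1.5-fold either way for 63.8% of genes at 0 h, 62% at 24 h and 75.5% in the shared line effect. A 2-fold difference was thus not resolved for most genes under 1 CPM, and among genes of 1 to 5 CPM the interval lay within 2-fold for 67.9% at 0 h and 71.1% at 24 h. The same genes in the mutant give a scale: atdgcr14l-1 differed from Col-0 in 431 genes at 0 h (2.03%) and in 2633 genes at 24 h (12.4%). Among the 309 genes called higher in the mutant at 0 h (1.45%), the middle quartiles of the OE-6 over Col-0 difference ran between -0.07 and 0.07, where the mutant's median was 0.68. For the 122 genes called lower in the mutant at 0 h (0.573%), the median was -0.06 in OE-6 and -0.71 in the mutant. At 24 h the 1640 genes called higher in the mutant (7.71%) had medians of 0.12 in OE-6 and 0.59 in the mutant, and the 993 called lower (4.67%) had medians of -0.06 in OE-6 and -0.53 in the mutant. MAF5 was the 1 gene called in both lines at 0 h, and also the 1 gene called in both lines at 24 h. The Col-0 libraries are shared by both comparisons, and these genes were chosen by the mutant's values, so the figures describe the genes and test nothing.

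**Figure D2:**
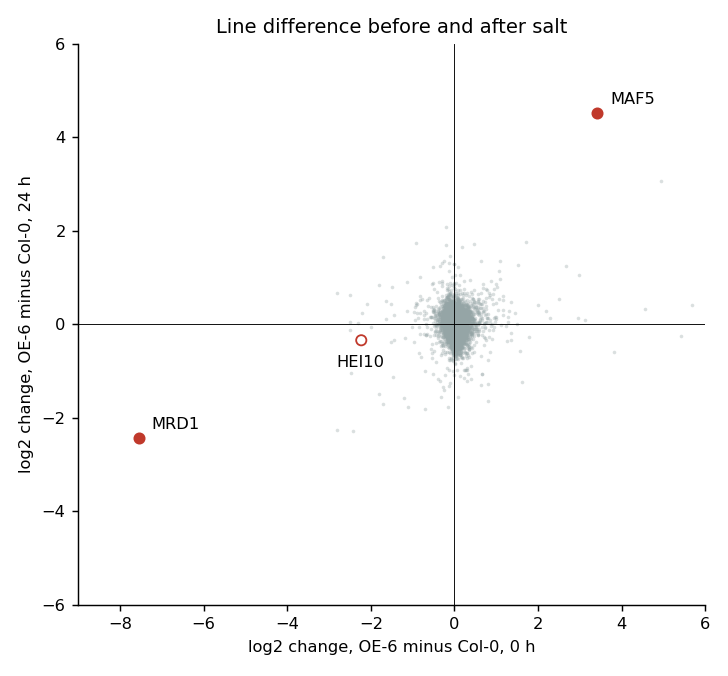
Log2 difference of OE-6 over Col-0 at 0 h (horizontal) and at 24 h (vertical), 1 grey point for each of the 15223 genes that averaged 5 CPM or more; 10 genes lie outside the axes. MAF5 and MRD1 are filled red, and HEI10, whose mean over all libraries is below 5 CPM, is an open circle; MAF5 stands alone at the upper right, MRD1 lies at -7.55 at 0 h and HEI10 near 0 at 24 h.

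MAF5 (AT5G65080, chromosome 5, 25997504 to 26002619 on the plus strand in TAIR10.1) was the single gene that edgeR called in OE-6 at both times. DESeq2 also called AT1G10150 lower at both times (-25.95 at 0 h and -25.5 at 24 h), a gene listed at 0 in some libraries. MAF5 encodes an FLC-like MADS-box repressor of flowering. At 0 h it had 29.1, 30.3 and 32.7 CPM in OE-6 and 1.91 and 3.84 CPM in Col-0. The levels at 24 h were 28.5, 41.8 and 33.1 CPM in OE-6 and 1.4, 1.66 and 1.42 CPM in Col-0. Every OE-6 library was above every Col-0 library at both times, and the mean was 10.7-fold higher in OE-6 at 0 h and 23.1-fold higher at 24 h. The log2 difference was 3.42 ± 0.26 at 0 h (SE, 95% interval 2.86 to 3.98, edgeR adjusted p = 4.91e-05), 4.53 ± 0.24 at 24 h (4.02 to 5.03, adjusted p = 2.54e-07) and 4.01 ± 0.26 as 1 line effect (3.45 to 4.58, adjusted p = 2.02e-04). The larger difference at 24 h went with the lower Col-0 level there. The change of the difference between the times, 1.11 ± 0.32, was not called (unadjusted p = 0.00384, adjusted p = 0.943). The gene was called in each comparison under all 21 alternatives tried.

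The mutant without the transgene held the same amount of MAF5 transcript. It had 32.2, 25.6 and 31.5 CPM in atdgcr14l-1 at 0 h and 38.1, 32.2 and 26.8 CPM at 24 h, so that OE-6 and mutant libraries overlapped at both times. The direct log2 difference of OE-6 over atdgcr14l-1 was 0.04 at 0 h (95% interval -0.38 to 0.46, edgeR adjusted p = 0.963) and 0.09 at 24 h (-0.33 to 0.51, adjusted p = 0.796). A difference between OE-6 and its parent mutant larger than the ends of these intervals was thus not seen, while AtDGCR14L itself differed by 2.60 between the same libraries.

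MAF4 (AT5G65070, chromosome 5, 25992193 to 25996202 on the plus strand), the neighbour before MAF5 and a repressor of flowering of the same family, ends 1301 bases before MAF5 starts. At 0 h it had 4.75, 4.65 and 7.77 CPM in OE-6 and 1.98 and 2.76 CPM in Col-0. The levels at 24 h were 1.96, 4.09 and 4.59 CPM in OE-6 and 0.889, 2.21 and 0.788 CPM in Col-0. OE-6 was above Col-0 without overlap at 0 h, and the groups overlapped at 24 h. The log2 difference was 1.27 at 0 h, 1.45 at 24 h and 1.37 ± 0.32 as 1 line effect (SE, 95% interval 0.68 to 2.07, unadjusted p = 0.0011, adjusted p = 0.996), which edgeR did not call; DESeq2 called the line effect at 1.38 (adjusted p = 0.0172). The next 2 genes of the cluster stayed near 0: the shared line effect was 0.00 for MAF2 (95% interval -0.16 to 0.17) and 0.11 for MAF3 (-0.04 to 0.25). On the other side BST1, a gene of root hair growth, had a line effect of -0.26 (-1.13 to 0.62), and TPPJ, which lies 16837 bases beyond MAF5, is described with the stress genes. How reads that match more than 1 MAF gene were counted is not given in the sources used here, so small differences between the MAF genes are uncertain.

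The 200 bases before each of the 2 genes are shown because MAF5 and MAF4 are the members of the cluster with the largest differences and share a run of sequence there. Both are from the plus strand of TAIR10.1 (RefSeq), chr5:25997304-25997503 for MAF5 and chr5:25991993-25992192 for MAF4, written 5′ to 3′, with the longest run that the 2 have in common in capitals.
MAF5: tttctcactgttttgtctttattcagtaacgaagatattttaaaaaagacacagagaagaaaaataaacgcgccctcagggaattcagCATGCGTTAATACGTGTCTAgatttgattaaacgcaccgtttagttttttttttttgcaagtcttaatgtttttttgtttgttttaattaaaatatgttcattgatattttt
MAF4: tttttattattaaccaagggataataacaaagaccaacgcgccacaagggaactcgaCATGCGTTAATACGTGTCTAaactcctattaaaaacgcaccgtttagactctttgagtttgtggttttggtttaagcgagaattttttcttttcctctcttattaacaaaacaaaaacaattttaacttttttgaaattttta
The run is 20 bases long and begins 112 bases before the annotated start of MAF5 and 143 bases before that of MAF4. Searched on both strands in the 200 bases before each of 27443 genes, it occurred before 2 of them (0.00729%), MAF4 and MAF5. The same windows of MAF2 and MAF3 shared at most 8 bases in a row with that of MAF5. The run was found by comparing these 2 windows, and a match is a description of the sequence, not of a binding site.

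**Figure D3:**
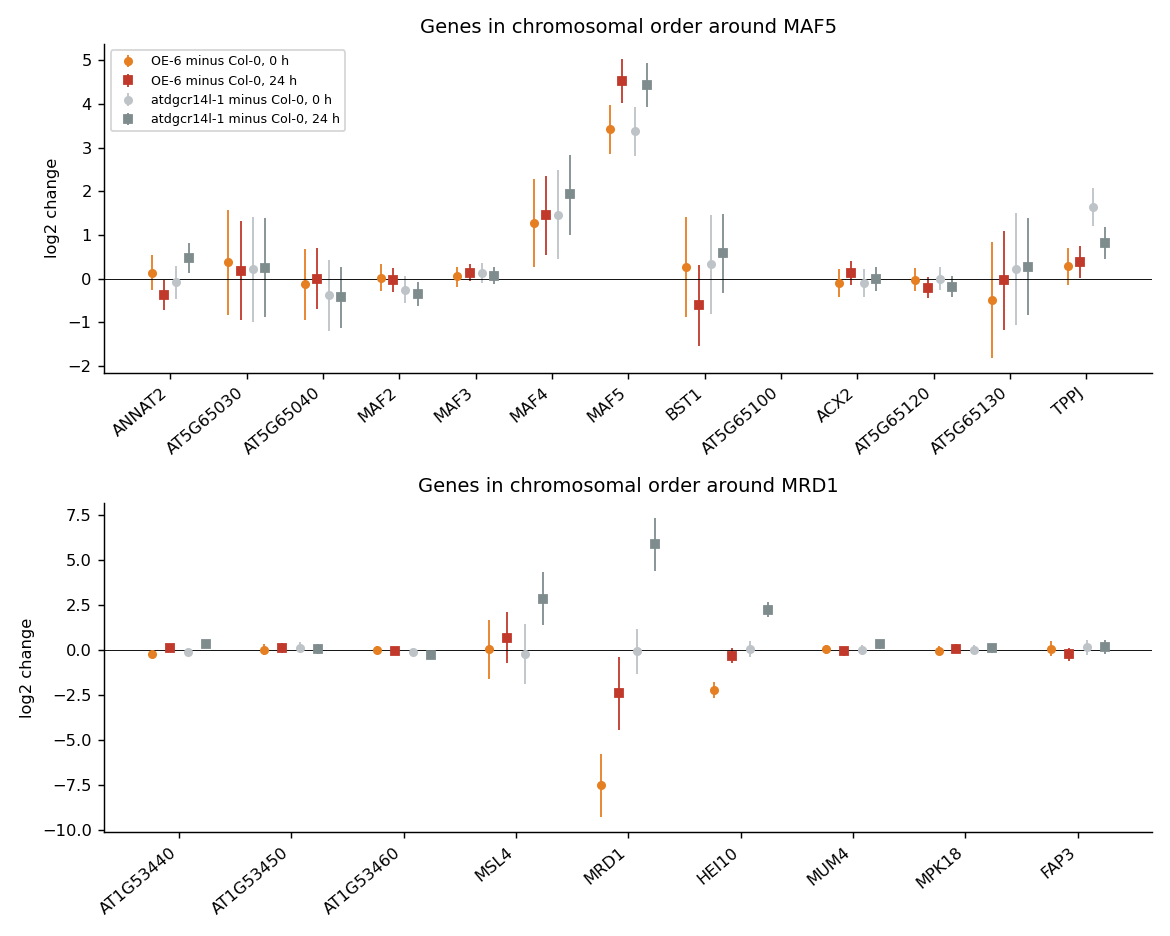
Log2 difference over Col-0 with its 95% interval for the genes around MAF5 (top) and around MRD1 (bottom), in chromosomal order; OE-6 is orange at 0 h and red at 24 h, atdgcr14l-1 light grey at 0 h and dark grey at 24 h, and all 4 share the Col-0 libraries. MAF5 is at 3.42 and 4.53 in OE-6, MAF4 at 1.27 and 1.45, and no neighbour of MAF5, MAF4 included, was called in OE-6, while BST1 is at -0.61 at 24 h and AT5G65130 at -0.48 at 0 h with wide intervals and TPPJ is at 1.63 and 0.81 in atdgcr14l-1; MRD1 and HEI10 are at -7.55 and -2.23 in OE-6 at 0 h, and AT5G65100 was not tested.

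MRD1 (AT1G53480, chromosome 1, 19963047 to 19964712 on the minus strand) was the gene with the largest called difference at 0 h. Its name, mto1 responding down, comes from a mutant that accumulates methionine. At 0 h it had 0.0379, 0.332 and 0.217 CPM in OE-6, which were 2, 18 and 11 counts, and 34.5 and 40.3 CPM in Col-0. After 24 h it had 0.166, 0.204 and 0.0703 CPM in OE-6 and 1.99, 0.0346 and 0.368 CPM in Col-0. OE-6 was thus near 0 at both times, while Col-0 was high at 0 h and low at 24 h, and the groups overlapped at 24 h. The log2 difference was -7.55 ± 0.81 at 0 h (SE, 95% interval -9.30 to -5.81, edgeR adjusted p = 0.00304). After 24 h it was -2.42 (-4.45 to -0.39, adjusted p = 0.571), and -0.45 without replicate 1 of Col-0, the Col-0 library with 1.99 CPM. The call at 0 h ended when only the 11 OE-6 and Col-0 libraries of both times were fitted (-7.54, edgeR adjusted p = 0.337). It also ended when replicate 1 of OE-6 was left out at both times (-7.06, adjusted p = 0.0764). With only the OE-6 and Col-0 libraries of 0 h fitted, MRD1 was called (-7.55, adjusted p = 0.00551). The mutant held 35.8, 32.4 and 36.6 CPM at 0 h and 43.8, 44.7 and 49.4 CPM at 24 h. OE-6 was below it with no overlap, by a log2 difference of -7.46 at 0 h (edgeR adjusted p = 1.77e-04), while at 24 h the difference was -8.27 (adjusted p = 1.78e-04). The mutant was itself called higher than Col-0 for MRD1 at 24 h (5.85, edgeR adjusted p = 2.75e-04), where 12.4% of all genes were called.

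HEI10 (AT1G53490, chromosome 1, 19963267 to 19966952 on the plus strand), a RING-type ligase known for its part in meiotic crossovers, was the other gene called lower in OE-6 at 0 h. At 0 h it had 1.53, 2.38 and 1.46 CPM in OE-6 and 8.6 and 8.25 CPM in Col-0. At 24 h it had 2.44, 1.54 and 1.6 CPM in OE-6 and 2.63, 2.13 and 2.31 CPM in Col-0. OE-6 was low at both times, and Col-0 was high at 0 h and at about the OE-6 level at 24 h. The log2 difference was -2.23 ± 0.21 at 0 h (SE, 95% interval -2.68 to -1.78, edgeR adjusted p = 3.29e-04). After 24 h it was -0.34 (-0.76 to 0.08, adjusted p = 0.661). The change between the times was 1.89 ± 0.29, which edgeR did not call (unadjusted p = 9.98e-06, adjusted p = 0.212) and DESeq2 did (adjusted p = 7.08e-06); edgeR called it without replicate 2 of OE-6 at 0 h (2.15, adjusted p = 0.0215) and without replicate 3 of OE-6 at 24 h (1.99, adjusted p = 0.0162). The mutant was called higher than Col-0 for HEI10 at 24 h (2.23, edgeR adjusted p = 2.45e-05). MRD1 and HEI10 share 1446 bases on opposite strands, which is 86.8% of MRD1 and 39.2% of HEI10. The library kit marked the strand, but whether the counting used it is not given in the sources used here, so reads of the 2 genes cannot be told apart. The genes on either side did not share the difference at 0 h: MSL4, a mechanosensitive channel, was at 0.01 (-1.66 to 1.67), and MUM4, an enzyme of seed mucilage synthesis, was at 0.01 (-0.25 to 0.28).

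The flowering list, which holds repressors such as FLC and integrators such as FT, had 21 genes, of which 19 were tested. In each of the 3 comparisons 1 of them was called, MAF5, higher in OE-6. The median log2 difference was 0.05 at 0 h, 0.08 at 24 h and 0.11 as 1 line effect, against -0.001, 0.004 and 0.001 over all genes tested. Members with an unadjusted p under 0.05 were 3 higher and 0 lower at 0 h, 5 higher and 1 lower at 24 h, and 5 higher and 1 lower in the shared line effect. These were 15.8%, 31.6% and 31.6% of the members tested, against 2.05%, 7.96% and 3.9% of all genes. After MAF5 and MAF4, the smallest p-values belonged to the promoters of flowering SOC1 and FT.

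SOC1, a MADS-box integrator of flowering signals, had 53.4, 51.1 and 47.7 CPM in OE-6 and 39.6 and 41.3 CPM in Col-0 at 0 h. Its levels at 24 h were 61.2, 78.7 and 61.5 CPM in OE-6 and 61.5, 45.3 and 47.8 CPM in Col-0. OE-6 was above Col-0 without overlap at 0 h only, and the line effect was 0.36 ± 0.09 (SE, unadjusted p = 0.00242, edgeR adjusted p = 0.996). FT, the mobile florigen, had 0.246, 0.462 and 0.691 CPM in OE-6 and 0.13 and 0.175 CPM in Col-0 at 0 h, and 0.763, 1.89 and 0.844 CPM in OE-6 and 0.604, 0.363 and 0.35 CPM in Col-0 at 24 h. It was higher in OE-6 without overlap at both times, at a low level, with a line effect of 1.48 ± 0.36 (unadjusted p = 0.00167, adjusted p = 0.996). FLC, the founding repressor of the family, was followed after its values were seen. It had 0.909, 2.62 and 2.37 CPM in OE-6 and 3.5 and 2.93 CPM in Col-0 at 0 h, and its line effect of -0.89 ± 0.33 was not called (adjusted p = 0.996).

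Set directly against the mutant, SOC1 and FLC passed the threshold. SOC1 was higher in OE-6 than in atdgcr14l-1 by 0.53 on the log2 scale at 0 h (95% interval 0.28 to 0.78, edgeR adjusted p = 0.0183) and by 0.73 at 24 h (0.48 to 0.99, adjusted p = 0.00217). FLC was lower in OE-6 than in atdgcr14l-1, by a log2 difference of -1.86 (95% interval -2.87 to -0.85, adjusted p = 0.038) before salt, and of -1.64 (-2.63 to -0.65, adjusted p = 0.0351) after 24 h. Of all genes, 972 were called between OE-6 and atdgcr14l-1 at 0 h (4.57%) and 2546 at 24 h (12%). MAF5 thus stood at the mutant level in a line whose SOC1 and FLC levels differed from the mutant.

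Genes that mark floral organs were the list that lay farthest from 0 between OE-6 and Col-0, although none of them was called. The list held 12 genes: AP1 and LFY, which set floral identity, the organ identity genes AP3, PI and AG, their partners SEP1, SEP2 and SEP3, and SHP1, SHP2, CRC and NZZ of the carpel and of spore-forming tissue. AP1 and LFY also belong to the flowering list. The summed level was 64.3, 37.5 and 29.9 CPM in OE-6 and 10.1 and 11 CPM in Col-0 at 0 h. At 24 h it was 101, 6.18 and 19.5 CPM in OE-6 and 21.5, 5.58 and 11.6 CPM in Col-0. The mutant libraries held 11.1 to 12.6 CPM at 0 h and 8.90 to 9.30 CPM at 24 h. In bulk samples, more cells of a type and more RNA per cell cannot be told apart, and the labels mention no flowers.

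The median log2 difference of the 12 genes was 2.33 at 0 h, 1.77 at 24 h and 2.07 as 1 line effect. An unadjusted p under 0.05, always higher in OE-6, was reached by 7 members at 0 h, by 5 at 24 h and by 8 in the shared line effect. These were 58.3%, 41.7% and 66.7% of the members, against 2.05%, 7.96% and 3.9% of all genes. At 0 h every OE-6 library was above both Col-0 libraries for 10 of the 12 genes, where 8.94% of all genes did the same, and these were also 10 of 12 without replicate 1. NZZ, 1 of these 10 genes, was at 0 in both Col-0 libraries there, so any OE-6 reads set it above. In Col-0 at 24 h NZZ reached at most 0.0889 CPM, so it passed the filter on low counts through its OE-6 levels. It counts in the medians and shares above as well. At 24 h this held for 0 of 12 (4.68% of all genes). Replicate 1 was the highest OE-6 library for 12 of 12 genes at each time. Without it at 24 h the median there was -0.19 and that of the shared line effect 1.16, each over 11 genes tested. Without replicate 1 of OE-6 at both times, the median of the shared line effect was 0.81, over 11 genes tested. SEP3, for example, had 12.5, 9.42 and 5.56 CPM in OE-6 and 3.22 and 2.39 CPM in Col-0 at 0 h, and 19.4, 2.57 and 2.74 CPM in OE-6 and 3.91, 1.66 and 1.75 CPM in Col-0 at 24 h. Its line effect was 1.74 ± 0.56 (SE, unadjusted p = 0.0117, edgeR adjusted p = 0.996).

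CRC, a gene of carpels and nectaries, had 4.49, 2.79 and 2.29 CPM in OE-6 and 0.167 and 0.136 CPM in Col-0 at 0 h, and 5.71, 0 and 0.861 CPM in OE-6 and 1.53, 0.225 and 0.385 CPM in Col-0 at 24 h. OE-6 was above Col-0 without overlap at 0 h only (log2 difference 4.38 ± 1.51, edgeR adjusted p = 1), and the gene was called at 0 h when the 5 libraries of that time were fitted alone (4.38, adjusted p = 0.00346). Directly against the mutant, SEP2 was higher in OE-6 at both times, by a log2 difference of 3.85 (1.74 to 5.97, edgeR adjusted p = 0.0403) before salt, and of 3.19 (1.21 to 5.17, adjusted p = 0.0402) after 24 h. In that comparison 4.57% of all genes were called at 0 h and 12% at 24 h. SEP2 had 6.55 CPM in replicate 1 of OE-6 and 2.58 to 3.26 CPM in the others at 0 h. At 24 h it had 13.5 CPM in replicate 1 and 0.963 to 1.76 CPM in the others. These 3 genes were chosen after their values were seen. The markers of other organs were summed in the same way. The 11 guard cell markers summed to 205 to 223 CPM in OE-6 and 205 to 220 CPM in Col-0 at 0 h, and to 176 to 204 CPM in OE-6 and 184 to 204 CPM in Col-0 at 24 h. The 16 root markers summed to 65.3 to 68.5 CPM in OE-6 and 64.8 to 68.0 CPM in Col-0 at 0 h, and to 44.9 to 67.0 CPM in OE-6 and 64.3 to 72.5 CPM in Col-0 at 24 h. Of these root markers, 5 were at 0 in OE-6 and 5 in Col-0 at 0 h, and 7 were at 0 in OE-6 and 4 in Col-0 at 24 h. At 24 h 7 of the 8 tested root markers lay below 0, with a median of -0.14, and 2 were lower in OE-6 at an unadjusted p under 0.05 (25%, against 7.96% of all genes); edgeR called 0 of them, and 1, PHO1, a phosphate exporter of the root, without replicate 3 of OE-6 at 24 h (-0.98, adjusted p = 0.00746). The part of floral tissue in the levels of FT and SOC1 was not tested.

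**Figure D4:**
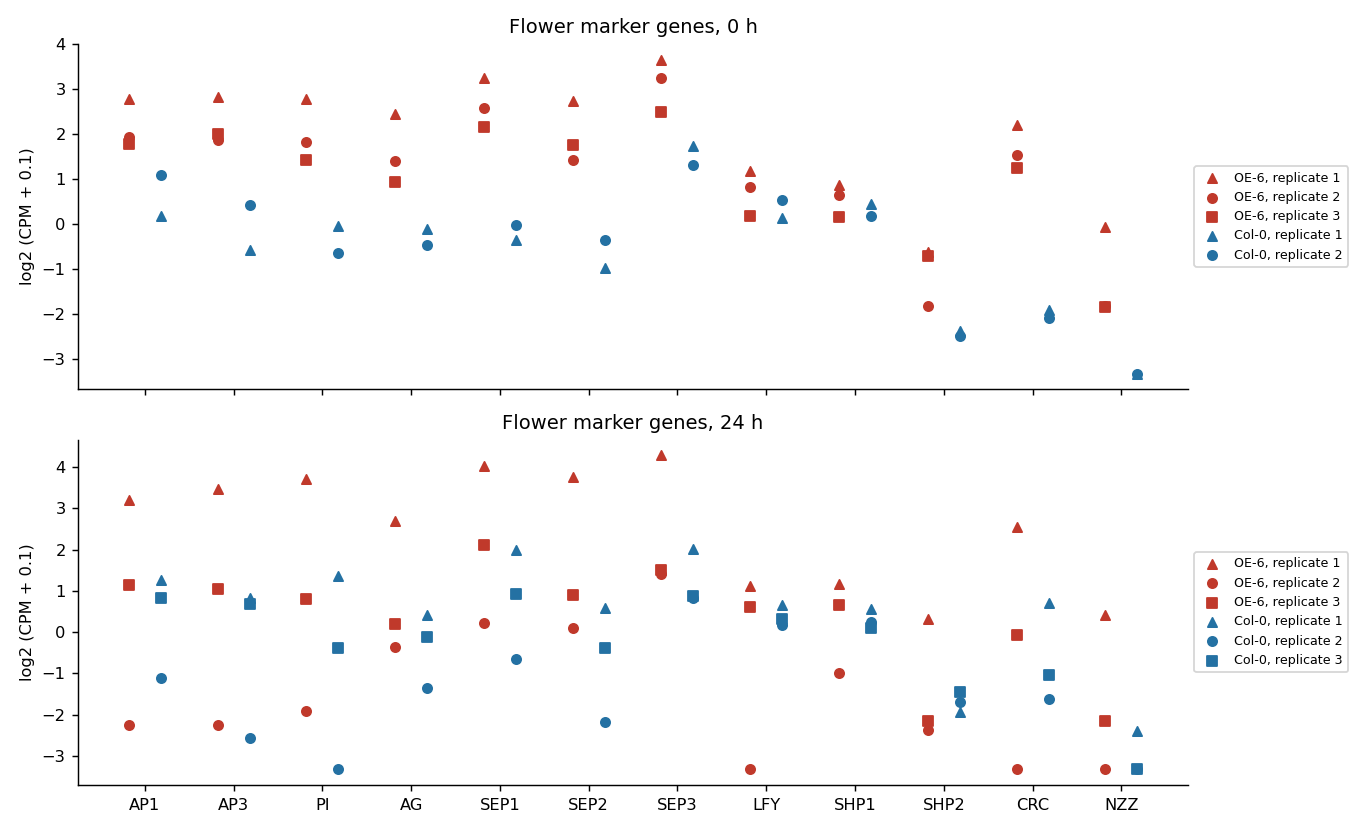
Level of the 12 flower marker genes as log2 of CPM + 0.1 in each OE-6 (red) and Col-0 (blue) library at 0 h (top) and 24 h (bottom), with the shape giving the replicate number. At 0 h the OE-6 points stand above the Col-0 points for 10 of 12 genes; at 24 h replicate 1 of OE-6 is high for all 12 and replicates 2 and 3 of OE-6 mix with Col-0.

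COR15A, COR15B, KIN2, RD29A, QQS and TPPJ, followed because earlier results of the same data had named them for the mutant, were not called between OE-6 and Col-0 under any alternative. COR15A, a cold- and drought-induced chloroplast protein that protects membranes, had 59.9, 30.0 and 24.7 CPM in OE-6 and 44.4 and 42.5 CPM in Col-0 at 0 h, against 2.69, 6.31 and 2.77 CPM in atdgcr14l-1. OE-6 and Col-0 overlapped, with a log2 difference of -0.18 ± 0.45 (SE, 95% interval -1.16 to 0.79). Its neighbour COR15B was at -0.06 (-0.93 to 0.80), KIN2, a small hydrophilic protein of cold and drought, at -0.06 (-0.47 to 0.36), and the dehydration marker RD29A at -0.24 (-1.02 to 0.53) at 0 h. At 24 h the 4 genes lay between -0.42 and 0.09. The shared line effect of KIN2 was 0.03 (-0.25 to 0.30), which is the narrowest interval of the 4.

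QQS, an orphan gene of Arabidopsis that affects starch content, had 5.7, 3.45 and 4.89 CPM in OE-6 and 4.26 and 4.83 CPM in Col-0 at 0 h. At 24 h it had 3.48, 3.8 and 4.13 CPM in OE-6 and 2.74, 1.73 and 1.98 CPM in Col-0. The groups overlapped at 0 h and not at 24 h, where the log2 difference was 0.82 ± 0.27 (SE, edgeR adjusted p = 0.535). In the mutant the gene held 27.5, 28.9 and 23.7 CPM at 0 h, from which OE-6 differed by -2.51 (adjusted p = 1.11e-04). TPPJ, a trehalose phosphate phosphatase gene near MAF5, had 7.99, 8.09 and 9.41 CPM in OE-6 and 7.62 and 6.39 CPM in Col-0 at 0 h, and 17.5, 24.7 and 13.2 CPM in OE-6 and 15.5, 14.1 and 13.0 CPM in Col-0 at 24 h. Its line effect was 0.34 ± 0.14 (adjusted p = 0.996). The mutant held 20.9, 22.1 and 22.3 CPM at 0 h, so that TPPJ, unlike MAF5 on the same stretch of chromosome 5, was lower in OE-6 than in the mutant at 0 h (log2 difference -1.36, adjusted p = 4.38e-04). At 24 h the mutant held 21.3, 26.4 and 26.8 CPM, which overlapped with OE-6, and the difference of -0.43 (-0.79 to -0.06, adjusted p = 0.111) was not called.

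The 24 gene lists of pathways and cell types give the wider picture. Outside the flower markers, list medians lay between -0.08 and 0.43 at 0 h, between -0.53 and 0.29 at 24 h and between -0.20 and 0.27 as 1 line effect, and the flowering list was the single list with a called member. The 46 nuclear photosynthesis genes had a median of 0.04 at both times, with 0 members under an unadjusted p of 0.05 at 0 h and 1 at 24 h. The 20 SR splicing factors and the 32 other splicing factors, the group nearest to the known role of the DGCR14 family, had medians of -0.06 and -0.04 at 24 h, with 2 members (10%) and 1 member (3.12%) lower at an unadjusted p under 0.05, against 7.96% of all genes. At 0 h and in the shared line effect, 0 members of either list reached it. The 45 abscisic acid (ABA) and osmotic stress genes had a median of 0.07 as 1 line effect, with 7 members higher and 0 lower at an unadjusted p under 0.05 (15.6%, against 3.9% of all genes). Within the times, 1 member was higher at an unadjusted p under 0.05 at 0 h (2.22%, against 2.05% of all genes) and 1 at 24 h (2.22%, against 7.96%). Sodium and potassium transporters, which set salt uptake and sequestration, had a median of -0.02 as 1 line effect over 23 genes.

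**Figure D5:**
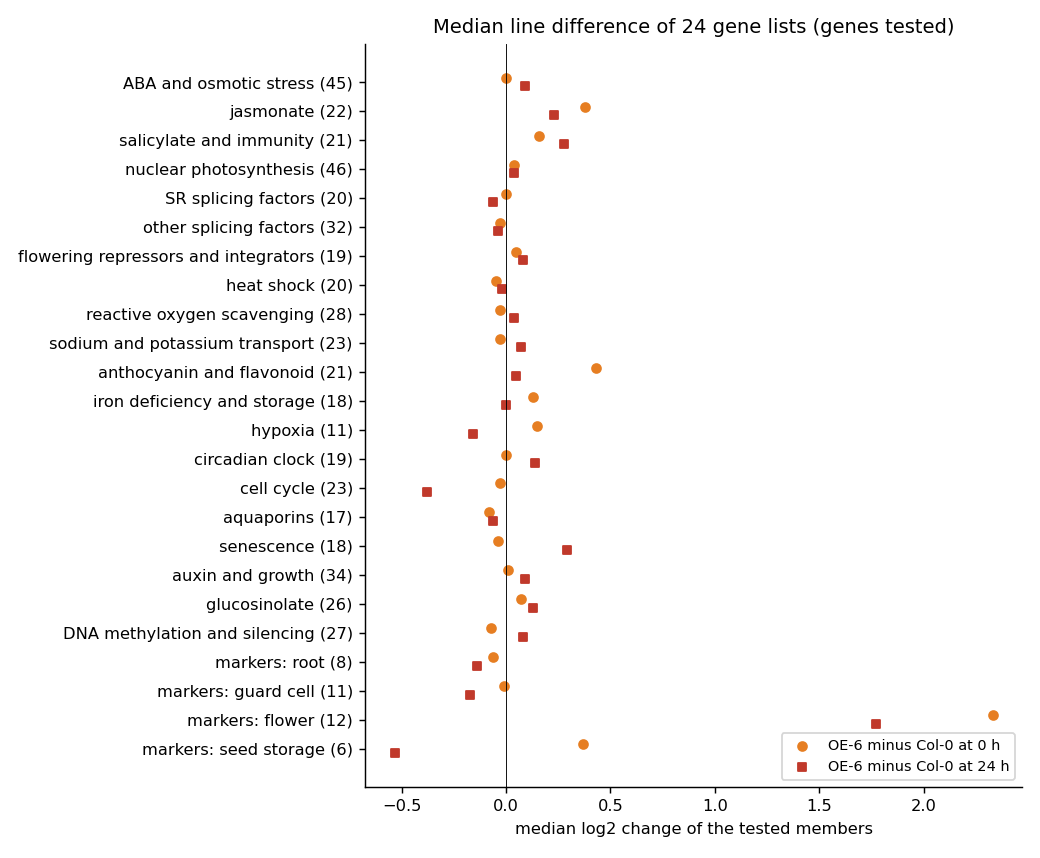
Median log2 difference of OE-6 over Col-0 for 24 gene lists at 0 h (orange circles) and 24 h (red squares), with the number of genes tested in brackets. The flower markers lie at 2.33 and 1.77, and the other lists between -0.53 and 0.43; seed storage rests on 6 genes of very low level.

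Cell cycle genes were the list with the most even shift at 24 h. All 23 tested members lay below 0 there, with a median of -0.38, and 6 had an unadjusted p under 0.05 (26.1%, against 7.96% of all genes), while at 0 h the median was -0.03. None was called by edgeR. The size followed single libraries: the median at 24 h was -0.13 without replicate 2 of OE-6 and -0.64 without replicate 1. TSO2, a subunit of ribonucleotide reductase that supplies DNA precursors, had 45.7, 58.2 and 46.9 CPM in OE-6 and 63.2, 74.7 and 67.5 CPM in Col-0 at 24 h, without overlap (-0.44 ± 0.13, adjusted p = 0.516). The mitotic cyclin CYCB1;1 had 4.69, 1.56 and 3.15 CPM in OE-6 and 3.89, 3.61 and 3.52 CPM in Col-0 at 24 h, with overlap (-0.23 ± 0.28, adjusted p = 0.84). Both were chosen after their values were seen.

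Since DGCR14 proteins act with the spliceosome, genes with and without introns were also set against each other. Each library received the median log2 level, relative to the mean of the libraries, of 3086 genes without introns minus that of 18060 genes with introns. The score was 0.019, -0.004 and 0.022 in OE-6 and -0.026 and -0.006 in Col-0 at 0 h, and 0.002, 0.010 and -0.002 in OE-6 and 0.045, 0.008 and -0.042 in Col-0 at 24 h. OE-6 was above Col-0 by 0.028 at 0 h and by 0 at 24 h, and the mean of 0.014 did not pass a two-sided exact permutation test within times (p = 0.38, 200 arrangements). For scale, the atdgcr14l-1 libraries scored -0.074, -0.084 and -0.051 at 0 h and -0.109, -0.156 and -0.124 at 24 h. These were below every OE-6 and Col-0 library of the same time and were not part of the test. A count per gene does not show how transcripts were spliced.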

How the data were processed

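Poly(A) RNA of 17 Arabidopsis seedling libraries, made with a kit that marks the second strand with dUTP, was sequenced per the labels. The authors deposited 1 table per library of estimated counts for 27655 genes, written as whole numbers; the submitters' processing notes name DESeq2 2.11.40.7, Bowtie2 2.4.5 and StringTie 2.1.7, in no stated order. Not given in the sources used here are the genome build, the handling of reads that match several genes and the strand setting of the counting. Gene coordinates come from a match of the locus names to TAIR10.1 (27445 genes matched), and 210 organelle genes were kept in the tests but not named. In the deposited counts 2772 genes were at 0 in every library.

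Counts were tested with edgeR 4.0.16 (R 4.3.3; robust quasi-likelihood fit, TMM scaling, filterByExpr) in 1 model of 6 group means over all 17 libraries, which left 21282 genes. The shared line effect came from a model of time plus line over the 11 OE-6 and Col-0 libraries, with 21098 genes. The biological coefficient of variation was 19.5% over 17 libraries and 19.8% over 11. Scripts were tested on simulated counts with known changes. DESeq2 1.42.0 on the same deposited counts, other scalings and filters, smaller sets of libraries, a replicate block and the removal of each library in turn were alternatives. Genes without introns were set against genes with introns by an exact permutation test within times. Bases before genes were read from the RefSeq TAIR10.1 sequence.

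Named genes were AtDGCR14L, 9 genes followed because earlier results had named them, the largest called differences among genes that averaged 5 CPM or more and whose groups did not overlap, and, for each list with a called member, at most 3 genes taken by p-value. HEI10 was among the 9 and below 5 CPM. Other genes are marked as chosen after their values were seen. The comparison, the lists and the alternatives were all chosen with earlier results of these data known.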

Additional observations from a re-analysis of the deposited data

Results flagged for a closer look

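For 2 genes that are named in the text, every OE-6 library was above every Col-0 library at 0 h and below every Col-0 library at 24 h. CSD1, a copper/zinc superoxide dismutase, had 370, 352 and 376 CPM in OE-6 and 340 and 258 CPM in Col-0 at 0 h, and 414, 116 and 149 CPM in OE-6 and 602, 418 and 547 CPM in Col-0 at 24 h. The change of its line difference between the times was -1.50 on the log2 scale (edgeR unadjusted p = 0.0181, adjusted p = 0.943). Without replicate 1 of OE-6 at 24 h, CSD1 was called lower at 24 h (-1.98, adjusted p = 0.0111), as was the chloroplast superoxide dismutase CSD2 (-2.34, adjusted p = 0.0153). LSH10, a member of the LIGHT-DEPENDENT SHORT HYPOCOTYLS family, had 43.5, 35.1 and 35.9 CPM in OE-6 and 31.8 and 33.5 CPM in Col-0 at 0 h, and 21.5, 17.1 and 28.1 CPM in OE-6 and 51.4, 37.2 and 43.1 CPM in Col-0 at 24 h. Its change between the times was -1.21 (unadjusted p = 2.24e-04, adjusted p = 0.943). Both genes were chosen after their values were seen.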

How the results depend on the processing

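MAF5 was called higher in OE-6 at 0 h, at 24 h and in the shared line effect under every alternative, and AtDGCR14L was called in none; its log2 difference ran between -0.34 and -0.21 at 0 h, between -0.14 and 0.06 at 24 h and between -0.21 and -0.07 as 1 line effect. HEI10 was called at 0 h throughout, and MRD1 in all but the 2 alternatives given with its values. The counts of calls moved more. With DESeq2, 18 genes were called higher and 6 lower at 0 h, 16 higher and 30 lower at 24 h, 14 higher and 5 lower as 1 line effect, and 5 higher and 3 lower for the difference between times. With the libraries of each time fitted alone, 13 were higher and 5 lower at 0 h. With the 11 libraries of OE-6 and Col-0, 1 was lower at 0 h. The average of both times in the fit of all groups called 2 lower. Without replicate 1 of OE-6 at both times, 1 was lower at 0 h and 2 at 24 h. Without replicate 2 of OE-6 and replicate 3 of atdgcr14l-1 at 24 h, an alternative chosen after the data were seen, 3 were higher at each time and 1 was lower at 24 h. Leaving out 1 library at a time gave 1 to 3 higher and 2 to 3 lower genes at 0 h, 1 to 9 higher and 0 to 76 lower at 24 h, 1 to 3 higher and 0 to 1 lower as 1 line effect, and 0 to 1 higher and 0 to 25 lower for the difference. The counts of 3 higher at 0 h, and of 2 lower for the difference, came without replicate 1 of Col-0 at 0 h; those of 9, 76 and 25 without replicate 3 of OE-6 at 24 h. The cause was not tested.

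With the replicate number as a block, 2 genes were called higher at 0 h, 1 lower at 24 h and 2 higher as 1 line effect; it changed no other count by over 1.5 times. The numbers pair no samples by the labels, and the number of replicate 2 of Col-0 at 0 h is itself in doubt, since its deposited table carries the number 3: the deviations of same-numbered libraries correlated by 0.324, 0.151 and 0.077 between the OE-6 times, by -0.09 and -0.029 between OE-6 and Col-0 at 0 h, and by 0.137, -0.019 and 0.027 at 24 h. No result changed its direction past the threshold in any alternative. Low-level genes set the limit of depth: the intervals of most genes under 1 CPM were wider than 2-fold.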

Other observations

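The list of 22 jasmonate genes had a median log2 difference of 0.38 at 0 h and 0.23 at 24 h, with 4 members higher at an unadjusted p under 0.05 at 0 h, where 2.05% of all genes reached it in either direction, and 0 at 24 h, where 7.96% did; edgeR called none. The median at 0 h was 0.08 without replicate 3 of OE-6 and 0.58 without replicate 2, and at 24 h it ran between 0.12 without replicate 2 of OE-6 and 0.43 without replicate 3; it was also 0.15 without replicate 1 of OE-6, and 0.13 without replicate 3 and 0.35 without replicate 1 of Col-0 at 24 h. VSP1, a vegetative storage protein and classic jasmonate marker, had 120, 42.2 and 51.9 CPM in OE-6 and 8.12 and 14.5 CPM in Col-0 at 0 h, without overlap (2.66 ± 0.77, SE, adjusted p = 1), and 434, 125 and 177 CPM in OE-6 and 169, 36.3 and 103 CPM in Col-0 at 24 h, with overlap. Replicate 1 of OE-6 was the highest of its group for VSP1 at both times, as it was for the flower markers; the part of floral tissue was not tested. The 18 senescence genes had a median of -0.04 at 0 h and 0.29 at 24 h. At 24 h, 4 members were higher at an unadjusted p under 0.05 (22.2%, against 7.96% of all genes).

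NCED3, the rate-limiting enzyme of ABA synthesis under drought, had 7.6, 8.09 and 5.62 CPM in OE-6 and 4.27 and 3.71 CPM in Col-0 at 0 h, and 28.7, 44.6 and 29.1 CPM in OE-6 and 18.6, 23.4 and 22.5 CPM in Col-0 at 24 h. It was higher in OE-6 without overlap at both times, with a line effect of 0.74 ± 0.14 (SE, edgeR adjusted p = 0.942); DESeq2 called it (adjusted p = 0.00209). ABI1, a phosphatase that damps ABA signalling, was likewise higher without overlap at both times (0.28 ± 0.07, edgeR adjusted p = 0.996, DESeq2 adjusted p = 0.037).

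AT3G62460 shared the order of MAF5, with OE-6 and the mutant both above Col-0. It had 12, 12 and 13.2 CPM in OE-6, 14.6, 14.7 and 14.6 CPM in atdgcr14l-1, and 5.85 and 7.24 CPM in Col-0 at 0 h, and 5.86, 5.78 and 5.75 CPM in OE-6, 6.8, 5.56 and 11.6 CPM in atdgcr14l-1, and 4.62, 4.04 and 4.24 CPM in Col-0 at 24 h. Its line effect was 0.65 ± 0.11 (SE, edgeR adjusted p = 0.774, DESeq2 adjusted p = 2.34e-04). AT1G27020 was the gene lower at 24 h with the smallest p. It had 1.31, 0.981 and 0.967 CPM in OE-6 and 3.68, 3.68 and 4.08 CPM in Col-0 there (-1.81 ± 0.28, edgeR adjusted p = 0.0683). AT4G01335 had 0.813, 0.741 and 0.615 CPM in OE-6 and 0.142, 0.104 and 0.193 CPM in Col-0 at 24 h, just outside the threshold (2.29 ± 0.33, adjusted p = 0.0522). The genes of these paragraphs were chosen after their values were seen.

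In the deposited tables, 233 genes were at 0 in at least 1 of the 17 libraries and above 5 CPM in another. Of the genes that DESeq2 called, 7 of 24 at 0 h, 4 of 46 at 24 h and 2 of 19 in the shared line effect were of this kind, which leaves 13 higher and 4 lower in that line effect. The 2 in the shared line effect were AT1G10150, lower in OE-6, and AT1G23300, higher in OE-6. With the replicate block, edgeR also called AT1G23300 in the shared line effect (14.75, adjusted p = 0.0132). How such values arose was not tested.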
